A study of Mus musculus with 31 samples.

Results

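Cell division needs a gene program that is switched on in 2 waves. Genes of the first wave, under control of E2F factors, make the proteins that license origins, copy DNA and supply nucleotides. Genes of the second wave, whose promoters often hold a cell cycle homology region (CHR) and CCAAT boxes, make the proteins of the spindle, the kinetochore and cytokinesis. Alveolar macrophages (AM) live in the airspaces, clear surfactant and particles, and are known to maintain their number largely by dividing in place. The 40 genes described here are members of that program, chosen by name and not by their values, though with earlier results of these data known. They comprised 3 genes of G1/S entry (Ccne1, Ccne2, E2f1), 7 of origin licensing (Mcm2, Mcm3, Mcm4, Mcm5, Mcm6, Mcm7, Cdc6), 5 of the replication fork and nucleotide supply (Pcna, Rrm1, Rrm2, Tyms, Tk1), 23 of mitosis and 2 of chromosome structure (Mki67, Top2a). All 40 were among the 13521 genes listed, and all 40 passed the filter on low counts at both time points, with at least 32 reads in every library (the lowest was Ccnb1).

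RNA was sequenced from AM recovered by bronchoalveolar lavage from male mice that were young adults at the start of exposure. Wild type mice (WT) were from a C57BL/6 colony. RAGE null mice lacked the receptor for advanced glycation end products in all cells and were on a C57BL/6 background from a colony of their own, so genotype and colony cannot be told apart. Mice were exposed to cigarette smoke (CS) or were unexposed controls, for 7 days (3 control WT, 4 WT after CS, 4 control RAGE null, 4 RAGE null after CS) or for 4 months (4 libraries in each of these groups). Each library was from AM of a mouse by the study's account, while the labels do not say so, and p-values measure the spread between these libraries. The 7 day and 4 month mice differed in age and collection, which cannot be told apart from the length of exposure.

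Libraries held 11666879 to 19975073 counted reads at 7 days and 12769797 to 34492288 at 4 months. Of 20 AM markers 17 were listed, and each had reads in every library. Ager, which encodes RAGE, was low in both genotypes, at 4.17 to 7.38 CPM (reads scaled to the effective library size) in WT and 3.83 to 5.43 in RAGE null at 7 days, where the ranges overlapped, and at 0.671 to 2.53 in WT and 2.73 to 4.2 in RAGE null at 4 months, where the ranges did not overlap and RAGE null was higher. Reads were counted per gene, so the level of Ager does not check the genotype labels. An axis was set by 425 of the 632 genes called between the control genotypes at 7 days. On it control WT is 0 and control RAGE null is 1. The library labelled control RAGE null replicate 2 at 4 months lay at 0.36. The other 3 of its group lay at 1.18 to 1.27, RAGE null after CS at 0.56 to 0.63 and WT between -0.21 and 0.08. Calls at 4 months among the members and the other replication and mitosis genes are given with and without control RAGE null replicate 2. Calls of cell markers, cell cycle entry genes and self-renewal regulators are given only with it.

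The stretches just upstream of 6 members are shown because the 2 waves are known to differ in promoter elements. Mcm6, Rrm1 and Mcm2 are among the members called between control genotypes at 4 months, and Cdk1, Top2a and Ccnb2 are of the second wave. Sequences are from RefSeq on GRCm38.p6, the build on which reads were aligned, and run 5′ to 3′ on the gene's strand. Capitals mark matches to the CHR (TTTGAA, with TTTAAA as its other form), CCAAT and the E2F site TTNNCGC, each read on both strands, so that a CCAAT box on the other strand reads ATTGG. Matches to the E2F site can overlap each other. Mcm6 and Mcm2 encode helicase subunits, and Rrm1 the large subunit of ribonucleotide reductase. Cdk1 encodes the mitotic kinase, Top2a the topoisomerase that untangles replicated chromosomes, and Ccnb2 a B-type cyclin.
Mcm6 (chr1:128359706-128359855, minus strand): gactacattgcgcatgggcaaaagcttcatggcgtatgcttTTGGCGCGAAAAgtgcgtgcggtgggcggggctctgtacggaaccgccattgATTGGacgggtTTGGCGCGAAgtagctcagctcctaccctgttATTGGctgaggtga
Rrm1 (chr7:102441545-102441693, plus strand): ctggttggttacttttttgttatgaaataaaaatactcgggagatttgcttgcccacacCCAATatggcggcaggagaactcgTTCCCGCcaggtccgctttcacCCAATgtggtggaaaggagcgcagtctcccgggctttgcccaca
Mcm2 (chr6:88898781-88898930, minus strand): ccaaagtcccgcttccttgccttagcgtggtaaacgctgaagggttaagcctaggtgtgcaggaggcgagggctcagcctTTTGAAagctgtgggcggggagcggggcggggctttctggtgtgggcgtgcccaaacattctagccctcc
Cdk1 (chr10:69352939-69353062, minus strand): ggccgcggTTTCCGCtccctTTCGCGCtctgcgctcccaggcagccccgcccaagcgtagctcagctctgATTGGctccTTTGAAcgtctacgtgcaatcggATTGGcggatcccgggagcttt
Top2a (chr11:99024190-99024339, minus strand): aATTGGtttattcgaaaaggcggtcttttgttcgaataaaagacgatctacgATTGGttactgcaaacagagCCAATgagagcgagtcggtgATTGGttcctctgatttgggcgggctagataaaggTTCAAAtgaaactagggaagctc
Ccnb2 (chr9:70421555-70421704, minus strand): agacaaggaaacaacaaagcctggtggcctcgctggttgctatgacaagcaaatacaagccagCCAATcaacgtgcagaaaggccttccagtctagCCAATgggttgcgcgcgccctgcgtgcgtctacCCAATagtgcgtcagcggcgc

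The upstream stretch of Mcm6 held E2F sites and CCAAT boxes and neither form of the CHR, while Cdk1 and Top2a held TTTGAA close to CCAAT boxes. The split was not clean, since Mcm2 held TTTGAA and no E2F or CCAAT match, and Cdk1 held 2 E2F matches. Rrm1 held 1 E2F match and 2 CCAAT boxes, and Ccnb2 held 3 CCAAT boxes. Further matches lay outside the stretches shown, at positions counted from the RefSeq start. Among them were TTTGAA at -167 and 5 for Ccnb2 and at -15 for Cdk1. An E2F match lay at -28 for Cdk1 and a CCAAT box at -175 for Mcm2. RefSeq promoter windows of 300 bases (250 before and 50 after the start) were matched for 34 of the 40 members, and Ccne2, Mcm4, Ccna2, Aurkb, Kif20a and Tpx2 had no match. TTTGAA was found in 14 of 19 mitosis genes (73.7%) and in 1 of 13 genes of G1/S and replication (7.69%, Mcm2), against 20.2% of all 27025 genes with a window. TTNNCGC was found in 10 of 13 genes of G1/S and replication (76.9%) and 8 of 19 mitosis genes (42.1%), against 22.6% of all genes. CCAAT was in 26 of 34 members (76.5%) against 41.1% of all genes, TTTAAA in 11 of 34 against 14.9%, and the Sp1 box GGGCGG in 28 of 34 (82.4%) against 38.2%. Among genes listed in the count table the shares were 14.2% for TTTGAA, 10.8% for TTTAAA, 43.1% for CCAAT, 37% for TTNNCGC and 67.6% for GGGCGG. These matches describe letters in a window and do not show binding.

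All 40 genes were read in AM of every group, at levels far above the filter. Levels per kilobase used the length of the gene model, on which their order depends. By this measure the mean level over 31 libraries was highest for Pcna, the sliding clamp of the replication fork, at 40.4 CPM per kb. The helicase subunit Mcm3 followed at 36.8 and the checkpoint kinase Bub1b at 25.6. The lowest were the kinetochore gene Cenpf at 2.25, the licensing factor Cdc6 at 2.03 and the cyclin Ccnb1 at 1.67 CPM per kb. In bulk RNA, fewer dividing cells and less of these transcripts in each cell cannot be told apart.

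The summed level of the 40 genes was similar in 7 of the 8 groups and was lowest and most spread in control RAGE null AM at 4 months. At 7 days the sum was 2006 ± 136 CPM (SD, n = 3) in control WT, 2128 ± 53 (n = 4) in WT after CS, 1951 ± 429 (n = 4) in control RAGE null and 2150 ± 171 (n = 4) in RAGE null after CS. At 4 months it was 2057 ± 96.7 CPM in control WT, 2149 ± 190.1 in WT after CS, 1504 ± 538 in control RAGE null and 1896 ± 166 in RAGE null after CS (n = 4 each). The 4 control RAGE null libraries at 4 months held 1035, 1243, 2264 and 1475 CPM for replicates 0 to 3, so that 3 lay below every other library of that time point and replicate 2 lay above every control WT library, which held 2181, 2052, 2051 and 1945. RAGE null AM after CS at 4 months held 1755, 2132, 1883 and 1816 CPM, and WT AM after CS held 2120, 1981, 2075 and 2421. At 7 days control RAGE null AM were split in the same manner, at 1626 and 1540 CPM for replicates 0 and 1 and at 2374 and 2265 for replicates 2 and 3, while control WT held 1940, 1916 and 2162. After CS for 7 days the sums were 2158, 2050, 2162 and 2143 CPM in WT and 2145, 1911, 2289 and 2253 in RAGE null, without a split of that size.

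**Figure D1:**
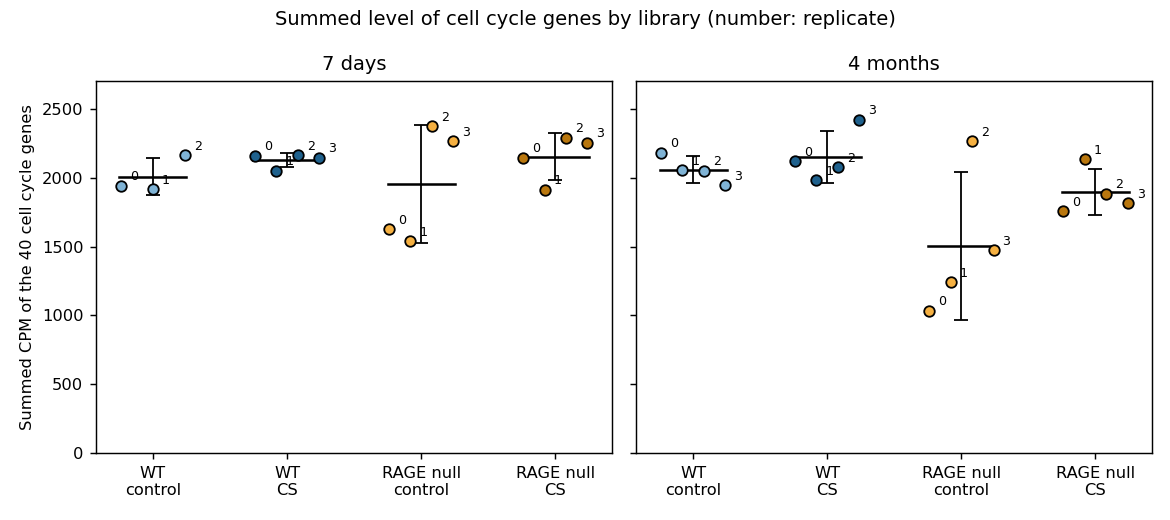
Summed CPM of the 40 cell cycle genes (y axis, from 0) in each library, by group (x axis), at 7 days and 4 months; points are libraries with their replicate number, and lines and bars are the mean and SD. Control RAGE null libraries ranged from 1035 to 2264 CPM at 4 months and from 1540 to 2374 at 7 days, while control WT libraries ranged from 1945 to 2181 and from 1916 to 2162.

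The members varied together from library to library, and most so in control RAGE null AM. Their median coefficient of variation there was 38% at 4 months, against 9.16% for all 10211 genes with a mean of at least 5 CPM, and 27.3% at 7 days against 8.98%. In the other 6 groups the median for the members was 8.29% to 12.7% and that for all genes 6.49% to 8.07%. Over all 31 libraries 33 of 40 members had their lowest level in control RAGE null replicate 0 at 4 months, 5 in replicate 1 of that group and 2 in control RAGE null replicate 1 at 7 days. Within control RAGE null AM at 4 months replicate 2 was the highest for 40 of 40 members, and within RAGE null AM after CS at 4 months replicate 1 was the highest for 40 of 40. After the group means were removed, each member's log2 CPM had a correlation of 0.62 (Ccne2) to 0.96 (Ccna2) with the mean of the other members over 31 libraries, a description in which all points share library, depth and scaling.

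**Figure D2:**
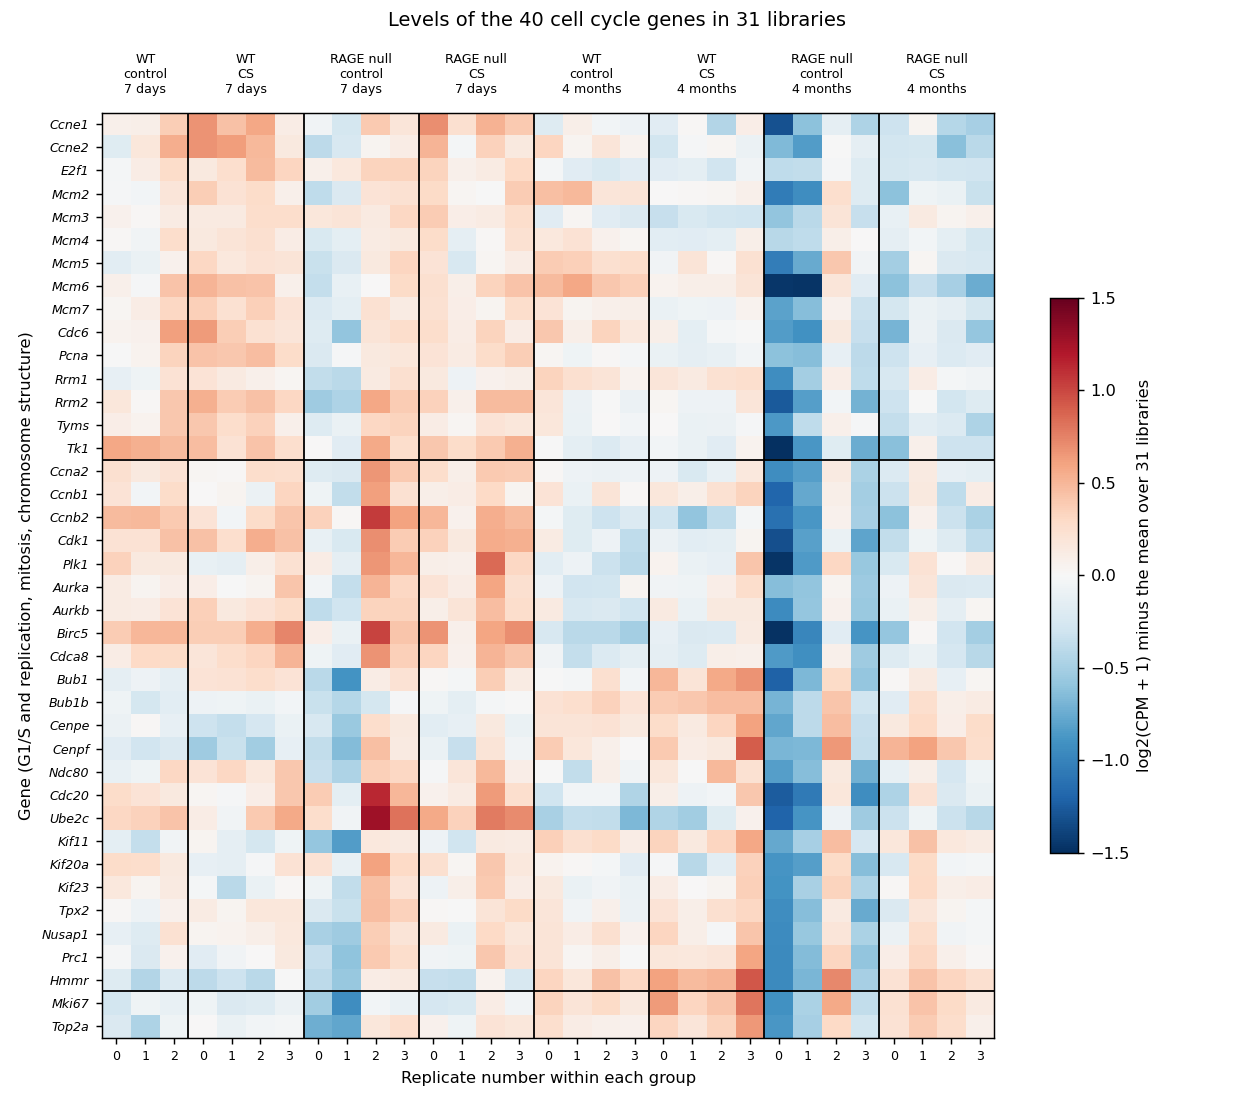
Level of each of the 40 genes (rows) in each of the 31 libraries (columns, by group and replicate number) as log2(CPM + 1) minus that gene's mean over all libraries; horizontal lines separate G1/S and replication, mitosis, and chromosome structure. Replicates 0, 1 and 3 of control RAGE null at 4 months are low across nearly all rows, and replicate 2 is not.

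Control WT and control RAGE null AM at 4 months gave the largest difference among the members, and the 6 genes called all serve DNA replication. The lower level was not confined to replication genes. The 15 genes of G1/S and replication summed to 909 ± 44 CPM in control WT and 648 ± 190 in control RAGE null (mean and SD, n = 4). The 23 mitosis genes summed to 776 ± 40 and 578 ± 233 CPM in these groups. A gene was called when edgeR's quasi-likelihood test gave a Benjamini-Hochberg adjusted p under 0.05 over all 13045 genes tested and the change was at least 1.5-fold. By this rule 6 of 40 members were higher in control WT (15%), against 3.43% of all genes called higher in WT and 6.97% called in either direction. Without the fold threshold 12 members passed, against 21.3% of all genes in either direction. All 40 members had a positive log2 fold change (WT minus RAGE null), with a median of 0.43, from 0.08 to 1.0, where the median of all genes was 0.00. Over all genes 49.3% were positive, and the members varied together, so their signs are not independent. At an unadjusted p under 0.05, 22 of 40 were higher in WT, against 17.7% of all genes.

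The called genes were Mcm6, Mcm2 and Cdc6 of origin licensing and Rrm1, Rrm2 and Tk1 of nucleotide supply. Mcm6 measured 112, 120.4, 107 and 104 CPM in the 4 control WT libraries and 28.7, 28.4, 91.3 and 71.3 CPM in the 4 control RAGE null libraries. The groups did not overlap for Mcm6, and the log2 fold change was 1.0 ± 0.27 (SE, adjusted p = 0.0184). Mcm2, which encodes another subunit of the same helicase, measured 68.6, 70.6, 56.7 and 57.4 CPM in control WT and 23.7, 25.8, 59.7 and 43.4 in control RAGE null. Replicate 2 of the RAGE null group reached into the WT range for Mcm2, and the log2 fold change was 0.72 ± 0.22 (adjusted p = 0.0291). Cdc6, the loader of the helicase at origins, measured 13.8, 10.9, 13.1 and 11.6 CPM in control WT and 5.28, 4.98, 11.4 and 7.82 in control RAGE null. Its log2 fold change was 0.71 ± 0.21 (adjusted p = 0.0277), again with replicate 2 within the WT range.

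Rrm1 and Rrm2 encode the large and small subunits of ribonucleotide reductase, which makes deoxynucleotides, and Tk1 the thymidine kinase of dividing cells. Rrm1 measured 120.1, 112, 109 and 98.7 CPM in control WT and 49.4, 66.3, 102 and 72.7 in control RAGE null, with a log2 fold change of 0.59 ± 0.15 (adjusted p = 0.0132). Rrm2 measured 65.4, 53.9, 57.1 and 53.8 CPM in control WT and 23.3, 32.02, 55.8 and 34.8 in control RAGE null, with a log2 fold change of 0.64 ± 0.18 (adjusted p = 0.0203). Tk1 measured 32.03, 28.9, 27.8 and 29.5 CPM in control WT and 10.6, 17.2, 28.2 and 18.8 in control RAGE null, with a log2 fold change of 0.64 ± 0.20 (adjusted p = 0.0345). For all 3 of these genes replicate 2 of the RAGE null group lay within the WT range and replicates 0, 1 and 3 lay below it.

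**Figure D3:**
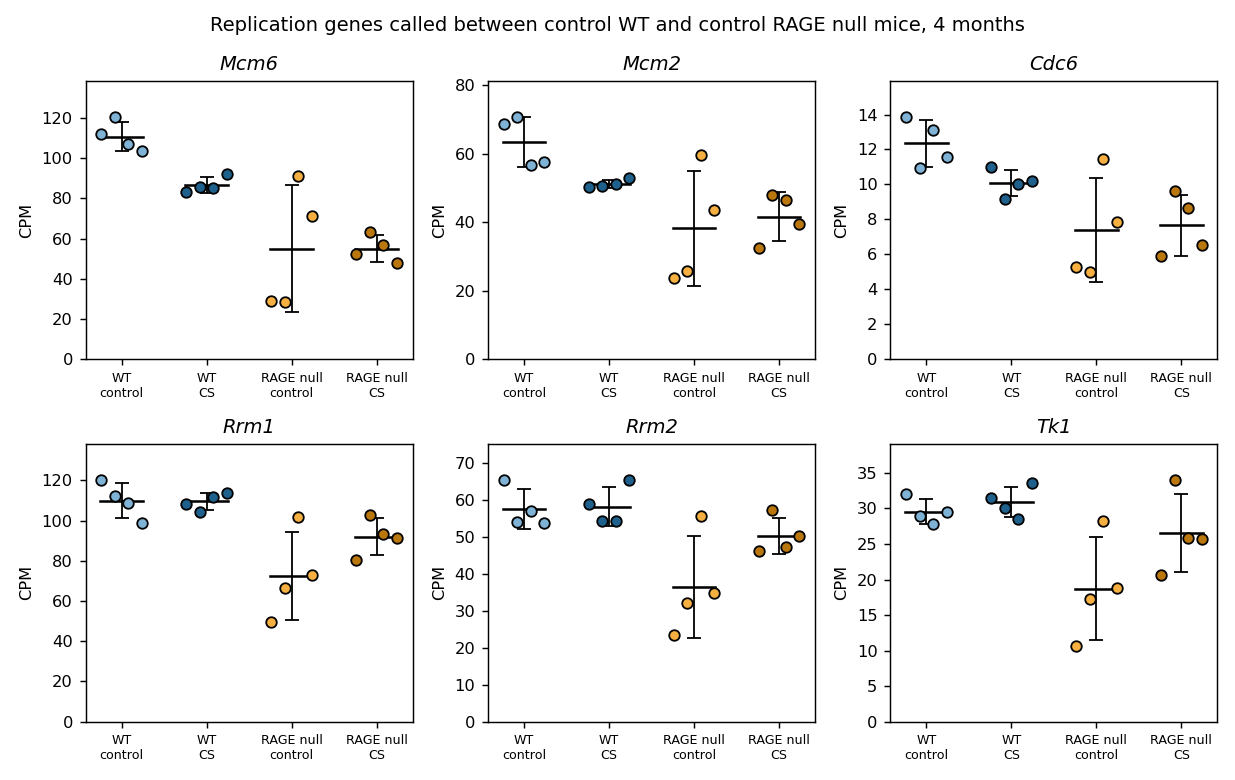
CPM (y axes, from 0) of the 6 genes called between control WT and control RAGE null AM at 4 months, in each of the 16 libraries of that time point by group (x axis), with mean and SD. In each panel 3 control RAGE null libraries lie below all control WT libraries, and for Mcm6 the fourth, at 91.3 CPM, does too.

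Another 6 members passed the adjusted p without reaching 1.5-fold, and among them Pcna had the lowest adjusted p of all members. Pcna measured 97.04, 90.9, 96.3 and 93.7 CPM in control WT and 61.7, 60.9, 87.7 and 72.4 in control RAGE null, ranges that did not overlap, with a log2 fold change of 0.41 ± 0.09 (adjusted p = 0.00640). The others were Ccne2 (log2 fold change 0.53), Mcm7 (0.49), Cdk1 (0.58), Nusap1 (0.55) and Tpx2 (0.52). Groups that did not overlap were seen for 3 members, Mcm6, Pcna and Ccne2 (7.5%), against 9.57% of all genes higher in WT, so this count was near the background. The smallest log2 fold changes were those of E2f1 (0.08 ± 0.08), Mcm3 (0.13 ± 0.12) and Ube2c (0.14).

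Neither Mki67 nor Top2a, both in wide use as markers of proliferation, was called in that comparison. Mki67, the source of the Ki-67 antigen, measured 248, 224, 239 and 217 CPM in control WT and 104, 140.4, 292 and 152 in control RAGE null (log2 fold change 0.43 ± 0.22, adjusted p = 0.170). Top2a measured 153, 139, 136 and 135 CPM and 69.4, 90.8, 159 and 106 CPM in the same groups (0.40 ± 0.18, adjusted p = 0.117). For both genes replicate 2 of the RAGE null group was above all control WT libraries and the other 3 were below them. Cdk1 measured 33.5, 26.95, 29.1 and 23.4 CPM in control WT and 11.71, 16.99, 28.7 and 17.4 in control RAGE null (0.58 ± 0.19, adjusted p = 0.0396, short of 1.5-fold). Ccnb1, the cyclin partner of Cdk1, measured 8.07, 6.35, 7.94 and 6.94 CPM and 2.45, 3.62, 7.31 and 4.51 CPM in these groups (0.67 ± 0.24, adjusted p = 0.0540). For Cdk1 and Ccnb1 replicate 2 fell within the control WT range.

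The number of members called depended on single libraries. Leaving out control RAGE null replicate 2, which was the highest of its group for every member, 31 of 40 were called higher in control WT, against 5.67% of all genes, with a median log2 fold change of 0.75. Hmmr, which encodes a spindle protein, then had a log2 fold change of 1.06 ± 0.13 (edgeR adjusted p = 5.4e-05), Mki67 0.81 ± 0.13 (adjusted p = 0.000369) and Mcm6 1.36 ± 0.23 (adjusted p = 0.000756). Leaving out the highest library lowers the group mean of every member by construction. The counts and adjusted p without replicate 2, here and in the comparisons below, are therefore no independent evidence of a difference. In the other direction, leaving out replicate 0 or replicate 1 of that group left only Mcm6 called, and leaving out replicate 3 left Mcm6, Mcm2 and Rrm1 with Ccne2 added. Without control WT replicate 0 the calls were Mcm6 and Rrm2. Mcm6 was called in the 16 fits that each left out 1 library of this time point.

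Alveolar epithelial markers were highest in the 3 control RAGE null libraries that were low in the members. Summed over 20 alveolar epithelial markers, control RAGE null AM at 4 months held 972, 792, 632 and 936 CPM in replicates 0 to 3, against 531 to 595 CPM in control WT and 540 to 621 in RAGE null after CS, and the library with the lowest sum in its group, replicate 2, had the highest level of the members. Of the 18 of these markers tested, 13 were called lower in WT than in RAGE null controls. Over all 13045 genes tested 461 were called lower in WT and 448 higher (3.43%). The marker calls in this paragraph are given with all libraries only. Of 13 dendritic cell markers 9 were called higher in control WT, with sums of 237 to 410 CPM against 168, 132, 157 and 170 in control RAGE null replicates 0 to 3, where replicate 2 did not stand apart. The 6 red cell markers summed to 261, 9.59, 5.35 and 11.1 CPM in control RAGE null replicates 0 to 3 and at most to 8.30 in control WT, and the 12 monocyte and interstitial macrophage markers listed summed to 165, 78.4, 38.3 and 66.4 CPM in the same RAGE null libraries, of which replicates 1 and 3 lay within the control WT range of 64.0 to 79.9. Of 10 T, B and NK cell markers tested 4 were called higher in control WT, and of 12 transcripts that move with RNA quality none was called. The part of these cells in the result was not tested. At 7 days control RAGE null AM also held more epithelial marker RNA (881 to 1059 CPM against 488 to 572 in control WT), and no member was called between these groups. Red cell markers at 7 days summed to 381, 105, 11.1 and 8.94 CPM in control RAGE null replicates 0 to 3. Replicates 0 and 1 were also those low in the members. In control WT replicates 0 to 2 the red cell sums were 680, 80.7 and 20.8 CPM. The part of these cells at 7 days was not tested either.

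**Figure D4:**
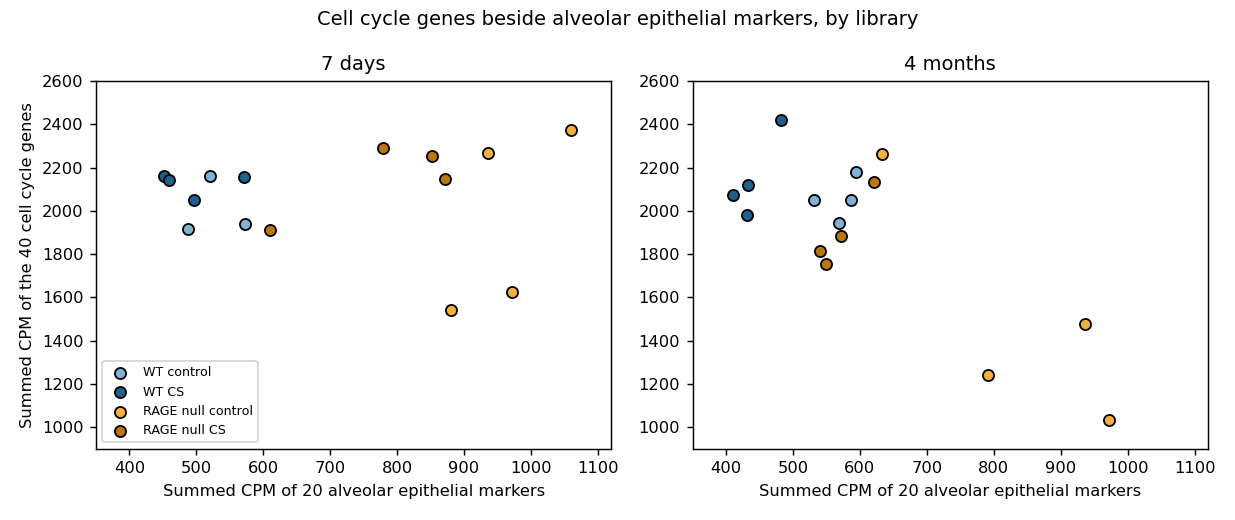
Summed CPM of the 40 cell cycle genes (y axis, which does not start at 0) against the summed CPM of 20 alveolar epithelial markers (x axis) in each library, at 7 days and 4 months, coloured by group. At 4 months the 3 libraries with the lowest cell cycle sums (1035, 1243 and 1475 CPM) are those with the highest epithelial sums (972, 792 and 936 CPM), all from control RAGE null, while at 7 days control RAGE null libraries with high epithelial sums have cell cycle sums from 1540 to 2374 CPM.

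CS exposure of RAGE null mice for 4 months gave no called member, but the mitosis genes all had positive differences. This comparison uses the same 4 control RAGE null libraries as the comparison of control genotypes, so the values are not independent of it. By edgeR 0 of 40 members were called and by DESeq2 0 of 40, against 7.27% of all genes in the edgeR fit. The log2 fold change was positive for 36 of 40 (CS minus control, median 0.38), against 48.6% of all genes. The members varied together between libraries, so their signs are not independent of each other. At an unadjusted p under 0.05, 16 members were higher after CS and 0 lower, against 16.1% of all genes higher. Top2a, at 149.6, 167, 155 and 136 CPM after CS, had the lowest adjusted p (log2 fold change 0.50 ± 0.18, adjusted p = 0.0553), followed by Tpx2 (0.49 ± 0.17, adjusted p = 0.0595). The largest log2 fold change was that of Cenpf (0.60). Mki67 measured 229.8, 264, 239.6 and 216 CPM after CS (0.45 ± 0.22, adjusted p = 0.156). Cdk1 measured 23.5, 29.3, 26.8 and 23.4 CPM and Ccnb1 5.27, 7.68, 5.03 and 7.46 CPM after CS, and for both the range overlapped that of the control RAGE null group. Without control RAGE null replicate 2, 23 of 40 were called higher after CS (against 4% of all genes), with a median of 0.68, among them Hmmr (1.05 ± 0.13, adjusted p = 8.0e-05) and Mki67 (0.84 ± 0.13, adjusted p = 0.000318). That omission lowers the control mean of every member, so its direction was fixed in advance.

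Among the licensing genes Mcm3 had the largest log2 fold change after CS in RAGE null AM (0.29 ± 0.12, adjusted p = 0.111). The median log2 fold change was 0.43 for the 23 mitosis genes, all of them positive, and 0.10 for the 15 genes of G1/S and replication, 11 of them positive. Mcm6 measured 52.1, 63.2, 56.8 and 47.7 CPM after CS, below every WT library, with a log2 fold change against control RAGE null that was smaller than its error (-0.02 ± 0.27). Mcm2, at 32.3, 47.9, 46.5 and 39.4 CPM, had a log2 fold change of 0.10 ± 0.22, Mcm5 of 0.01 ± 0.23 and Cdc6, at 5.90, 9.59, 8.67 and 6.51 CPM, of 0.03 ± 0.22. Of the nucleotide supply genes, Rrm1 measured 80.5, 103, 93.3 and 91.5 CPM, Rrm2 46.2, 57.2, 47.4 and 50.2 and Tk1 20.6, 34.01, 25.9 and 25.7 after CS. Pcna, at 76.7, 87.1, 82.3 and 84.6 CPM, had a log2 fold change of 0.22 ± 0.09 (adjusted p = 0.0976). Without control RAGE null replicate 2 these values were larger, at 0.34 ± 0.23 for Mcm6, 0.41 ± 0.18 for Mcm2, 0.33 ± 0.18 for Mcm5 and 0.33 ± 0.18 for Cdc6, and Mcm3 (0.48 ± 0.08, adjusted p = 0.000484), Mcm7 (0.39 ± 0.09, adjusted p = 0.00728) and Pcna (0.34 ± 0.06, adjusted p = 0.00143) passed the adjusted p without reaching 1.5-fold.

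**Figure D5:**
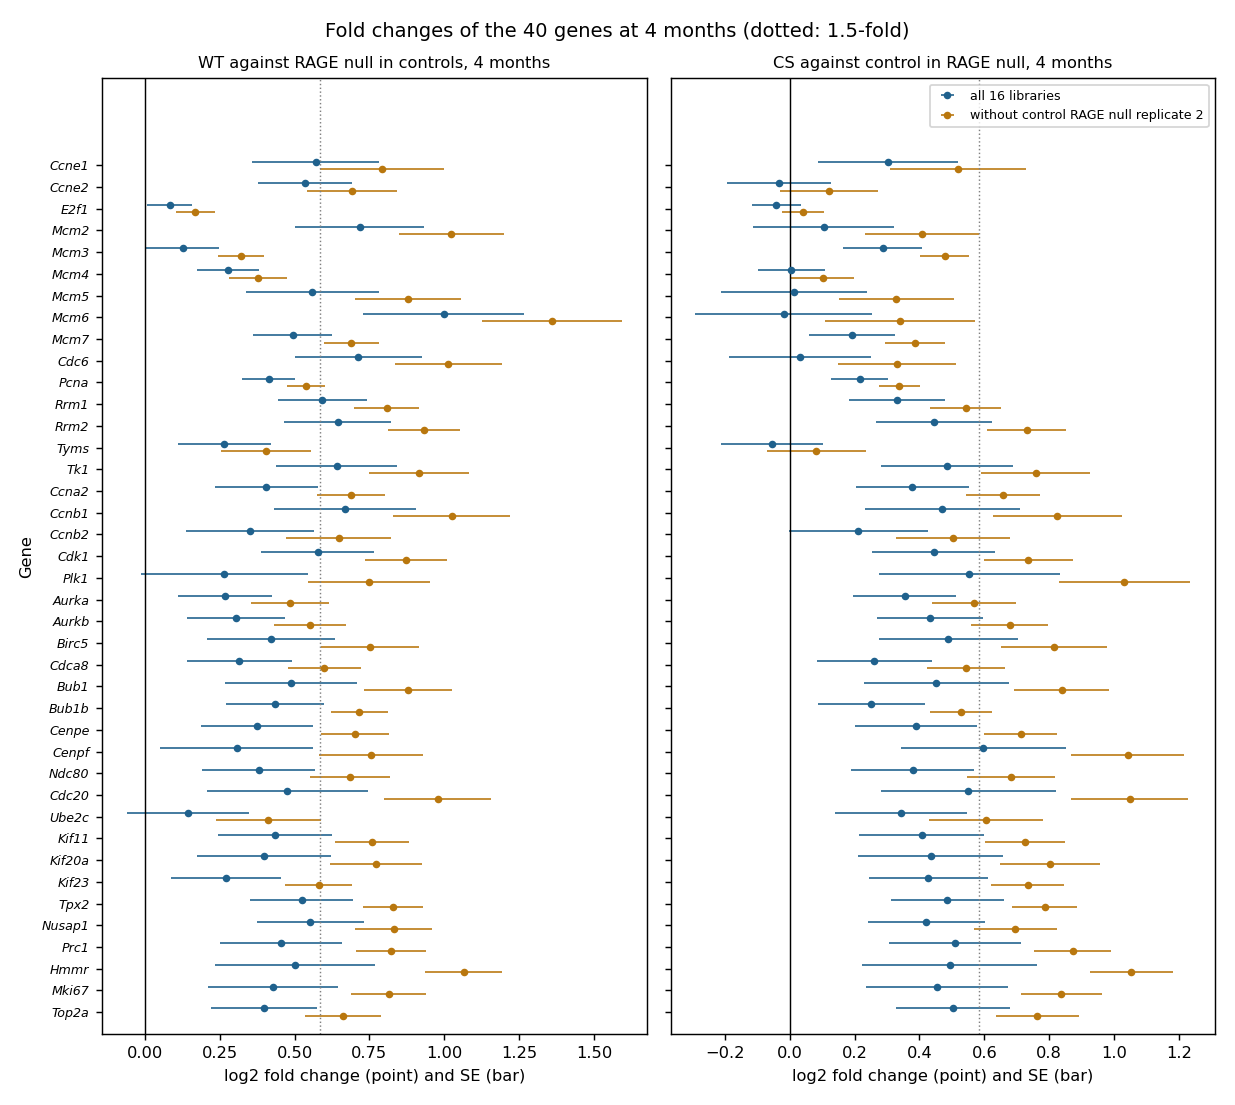
Log2 fold change (point) and SE (bar) of each of the 40 genes at 4 months (x axes), for WT minus RAGE null in controls on the left and CS minus control in RAGE null on the right, with all 16 libraries and without control RAGE null replicate 2; the dotted line marks 1.5-fold. All 40 points lie above 0 on the left, where Mcm6 is highest at 1.0, and on the right with all libraries the licensing genes lie at or below the 0.29 of Mcm3 and Cenpf is highest at 0.60.

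In WT AM exposed to CS for 4 months no member was called. By edgeR and by DESeq2 0 of 40 were called, against 5.67% of all genes in the edgeR fit, and at an unadjusted p under 0.05 there were 0 higher and 1 lower (28.4% of all genes in either direction). The median log2 fold change was -0.16 for the 15 genes of G1/S and replication, of which 2 were positive, and 0.18 for the 23 mitosis genes, of which 20 were positive, and the difference between these medians was not tested. Over all genes 49% were positive. WT after CS replicate 3 was the highest of its group for 33 of 40 members, and without it the medians were -0.17, with 1 of 15 positive, and 0.09, with 18 of 23 positive. Mcm6 measured 83.5, 85.9, 85.3 and 92.4 CPM after CS, below all 4 control WT libraries (log2 fold change -0.36 ± 0.27, adjusted p = 0.407). The same held for Mcm2, at 50.2, 50.4, 51.2 and 52.8 CPM, and for Mcm3, Mcm5 and Ccne2, so that 5 members were lower without overlap (12.5%), against 10.9% of all genes. Birc5, Bub1b and Hmmr were higher without overlap, 3 of 40 (7.5%) against 12% of all genes. Both counts were near the background. Mki67 measured 306, 245, 263 and 342 CPM after CS (0.31 ± 0.22, adjusted p = 0.380) and Top2a 160.5, 146, 162 and 203 CPM (0.25 ± 0.18, adjusted p = 0.381). The remaining genes followed by library were at 10.97, 9.17, 10.02 and 10.2 CPM for Cdc6, 108, 104, 112 and 114 for Rrm1, 58.8, 54.4, 54.4 and 65.3 for Rrm2 and 31.4, 30.1, 28.5 and 33.6 for Tk1. Pcna stood at 89.1, 86.9, 88.1 and 92.4 CPM, Cdk1 at 28.8, 27.3, 27.7 and 31.5 and Ccnb1 at 7.82, 7.34, 8.22 and 8.93.

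Between WT and RAGE null AM after CS for 4 months no member was called. By edgeR and by DESeq2 0 of 40 were called, against 4.94% of all genes in the edgeR fit, and at an unadjusted p under 0.05 there were 2 higher in WT and 1 lower (25.5% of all genes in either direction). The median log2 fold change was 0.19 (WT minus RAGE null), with 36 of 40 positive, against 48.6% of all genes. Mcm6 had the largest, at 0.66 ± 0.27 (adjusted p = 0.136), and Mcm3 the lowest, at -0.33 ± 0.12 (adjusted p = 0.101). Groups that did not overlap were seen for 7 members higher in WT (Mcm2, Mcm6, Rrm1, Tyms, Bub1, Bub1b and Hmmr, 17.5% against 10.1% of all genes) and for 1 lower, Mcm3 (2.5% against 9.31%). With control RAGE null replicate 2 left out of the fit, Mcm6 was called (1 of 40, against 5.8% of all genes).

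The difference between the CS responses of the genotypes at 4 months passed the test for no member. By edgeR and by DESeq2 0 of 40 interactions were called, against 0.0383% of all genes in the edgeR fit. The median interaction was -0.28 on the log2 scale (response of WT minus that of RAGE null), with 38 of 40 negative and 2 at an unadjusted p under 0.05, both negative (12% of all genes in either direction). Over all genes 51% of interactions were positive. Without control RAGE null replicate 2 the median was -0.58, 40 of 40 were negative and 32 were lower at an unadjusted p under 0.05 (8.34% of all genes), and the interactions of Tpx2 and Mcm3 were called, 2 of 40 against 0.563% of all genes.

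At 7 days no member was called in any comparison. For CS in WT the edgeR and DESeq2 counts were 0 of 40 (2.26% of all genes in the edgeR fit), with a median log2 fold change of 0.09, 29 of 40 positive and 2 higher at an unadjusted p under 0.05 (24.9% of all genes in either direction). For CS in RAGE null both counts were 0 of 40 (0.439% of all genes), with a median of 0.14, 32 positive and 5 higher at an unadjusted p under 0.05 (15.8%). That median ranged with the control RAGE null library left out, from 0.03 with 0 higher at an unadjusted p under 0.05 without replicate 1 (6.2% of all genes higher) to 0.27 with 18 higher without replicate 2 (5.93%). Between control WT and control RAGE null both counts were 0 of 40 (4.78%), with a median of 0.04, 25 positive and 1 higher at an unadjusted p under 0.05 (27.4%). After CS both counts between the genotypes were 0 of 40 (2.2%), with a median of -0.02, 16 positive and 0 at an unadjusted p under 0.05 (18.8%). The interaction at 7 days was called for 0 of 40 by either tool, with 0% of all genes called by edgeR, 10 positive and 1 lower at an unadjusted p under 0.05 (15.9%). Over all genes 49.5% to 51.2% were positive in these 7 day comparisons. The comparisons of one time point share libraries and are not independent of each other.

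The 7 day levels of the genes followed by library show where the spread lay. Mcm6 measured 85.2, 79.5 and 109 CPM in control WT, 115, 109, 108 and 84.9 in WT after CS, 62.7, 74.7, 80.9 and 98.7 in control RAGE null and 95.4, 85.9, 101 and 108 in RAGE null after CS, with overlap between all groups but without the low values seen at 4 months. Pcna measured 94.95, 98.95 and 120.5 CPM in control WT, 128, 127, 132 and 116 in WT after CS, 82.1, 94.3, 106 and 107 in control RAGE null and 110.3, 104, 116 and 123 in RAGE null after CS. It had the lowest adjusted p of the members for CS in WT (log2 fold change 0.26 ± 0.10, adjusted p = 0.117). Mcm2 measured 49.5, 48.4 and 56.8 CPM in control WT, 65.1, 58.4, 60.9 and 52.8 in WT after CS, 38.1, 42.7, 57.9 and 58.6 in control RAGE null and 61.00, 51.2, 49.95 and 65.1 in RAGE null after CS. Its control RAGE null libraries 0 and 1 were below all other libraries of that time point.

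The split of control RAGE null AM at 7 days was also seen in Mki67 and Top2a. Mki67 measured 162, 187 and 182 CPM in control WT, 188, 168, 171 and 185 in WT after CS, 136, 103, 191 and 182 in control RAGE null and 164, 167, 212 and 189 in RAGE null after CS. Top2a measured 110.0, 93.3 and 123, 129, 120.2, 125 and 126, 77.2, 74.6, 145 and 153 and 134, 123, 148 and 144 CPM in the same order of groups. In both genes control RAGE null replicates 0 and 1 were the 2 lowest libraries of that time point. Cdk1 measured 35.9, 35.7 and 42.03, 41.9, 36.6, 45.2 and 41.99, 28.3, 26.1, 50.4 and 40.4 and 39.4, 34.1, 45.8 and 44.9 CPM, and Ccnb1 8.01, 6.61 and 8.52, 6.87, 7.05, 6.39 and 8.84, 6.49, 5.06, 10.97 and 8.20 and 7.33, 7.51, 8.67 and 7.07 CPM in that order, and in both control RAGE null held the widest range. Cdc6 measured 10.6, 10.8 and 16.2, 16.4, 13.5, 12.2 and 11.8, 8.80, 6.46, 11.8 and 12.5 and 12.5, 11.1, 13.1 and 11.1 CPM. Rrm1 measured 86.9, 90.8 and 111, 109, 105, 100.1 and 96.5, 73.2, 71.4, 104 and 112 and 106, 89.9, 99.4 and 101 CPM. The 2 low libraries of control RAGE null were also the lowest of that time point for Rrm1. Rrm2 measured 64.6, 57.97 and 76.5, 83.4, 75.2, 78.2 and 71.4, 39.5, 41.4, 86.3 and 75.4 and 73.2, 60.7, 80.3 and 80.03 CPM, and Tk1 48.6, 47.3 and 45.2, 44.98, 37.6, 43.8 and 38.6, 32.3, 28.5, 48.3 and 38.9 and 43.2, 39.1, 42.7 and 47.1 CPM.

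Members moved both ways between the time points in control WT AM, a description that carries no test since age and collection differ. The summed transcripts that move with RNA quality differed too, at 15424 to 18071 CPM in control WT at 7 days and 7110 to 9124 at 4 months. The part of RNA quality was not tested. In control WT AM 9 members were higher at 4 months than at 7 days without overlap, among them Hmmr (1.53-fold), Mki67 (1.31-fold) and Top2a (1.29-fold), and 11 were lower, among them Ube2c (0.541-fold), Birc5 (0.544-fold) and Tk1 (0.629-fold). Over all listed genes 28.7% were higher and 28.5% lower without overlap between these 2 groups, so the counts of 22.5% and 27.5% of the members were near the background.

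No member was called for a difference between its CS responses at the time points. For WT, edgeR and DESeq2 called 0 of 40 (0.783% of all genes in the edgeR fit), with 0 higher and 2 lower at an unadjusted p under 0.05 (18.1% of all genes in either direction). The median was -0.31 for the 15 genes of G1/S and replication, of which 1 was positive, and 0.17 for the 23 mitosis genes, of which 21 were positive (4 months minus 7 days). Over all genes 49.4% were positive. For RAGE null both tools called 0 of 40 (1.86%), with a median of 0.22 and 1 higher at an unadjusted p under 0.05 (17.9%). Without control RAGE null replicate 2 of 4 months, 8 were called higher in RAGE null, Cdc20, Hmmr, Cenpf, Tpx2, Kif20a, Plk1, Cenpe and Kif23, against 2.87% of all genes in either direction. All 8 serve mitosis.

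Genes of the same program outside the 40 were also called higher in control WT than in control RAGE null AM at 4 months. Of 40 other replication genes 16 were called higher in control WT (40%, against 3.43% of all genes, with a median log2 fold change of 0.44), among them Hells, a chromatin remodeller (1.11 ± 0.20), Gins1 of the replicative helicase (0.96), the checkpoint kinase Chek1 (0.80) and Chaf1b of the histone chaperone that follows the fork (0.69). Of 66 other mitosis genes 7 were called higher in control WT (10.6%, median 0.43), among them the condensin subunit Ncapg2 (0.73), the kinetochore gene Cenpn (0.73), Melk (0.73) and Tacc3 (0.59). These counts also depended on single libraries: without control RAGE null replicate 2 they were 21 and 44, without replicate 0 they were 5 and 1, without replicate 1 they were 10 and 2, and without replicate 3 they were 12 and 1. Leaving out a control WT library gave 13 to 14 other replication genes, and the other mitosis genes fell to 2 without control WT replicate 0 and to 1 without replicate 2. After CS in RAGE null at 4 months 2 of the 66 were called higher, Kif22 (0.71) and Nuf2 (0.67), or 3.03% against 7.27% of all genes in either direction, and 37 were without control RAGE null replicate 2, 6 without RAGE null after CS replicate 0 and 1 to 3 without any other library. In WT 1 of the 66 was, Gtse1 (0.64), against 5.67%, and 1 to 2 were with a library left out. Between WT and RAGE null after CS at 4 months Gtse1 (0.67) and Ncapg2 (0.66) were called higher in WT, 3.03% against 4.94%, and 1 to 4 were with a library left out. With all libraries none of these 3 shares exceeded that of all genes. Of the 40 other replication genes 0 were called in these 3 comparisons with all libraries, and 9 after CS in RAGE null without control RAGE null replicate 2. At 7 days Cdc7, the kinase that fires origins, was called higher after CS in RAGE null and higher in control WT than in control RAGE null. The 10 genes most like the members, by correlation with the mean of the members over 31 libraries after removing group means, among 11354 other genes, were Ckap2l (0.96), Ncapd2 (0.96), Ncaph (0.95), Racgap1 (0.94), Nek2 (0.94), Cep55 (0.94), Iqgap3 (0.93), E2f7 (0.93), 2810417H13Rik (0.93) and Fignl1 (0.92). Of these 10, 7 stand in the lists of other cell cycle genes.

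Among genes that control entry into the cycle, calls fell in both directions. They reached 3 of 21 in a comparison at 4 months, and 4 of 27 among the inhibitors and p53 targets below. These highest shares lay above the 4.94% to 7.27% of all genes, but rest on few genes. The calls are given with all libraries only. Of 21 G1 cyclins, kinases and pocket proteins, E2f2 was called higher in control WT than in control RAGE null at 4 months (0.60), and the cyclin Ccnd3 (-0.65) and the growth regulator Myc (-0.63) lower. After CS for 4 months Myc was called lower in WT (-0.86) and in RAGE null (-1.09), and Ccnd3 lower in RAGE null (-0.83). In WT Mycl1, a relative of Myc, was called lower (-1.79) and Ccnd2 higher (0.87). Mycl1 also stands among the dendritic cell markers, which summed to 237 to 410 CPM in control WT and 156 to 185 in WT after CS at 4 months. The part of dendritic cells in the change of Mycl1 was not tested. Ccnd1, another cyclin of G1, was lower in control WT than in control RAGE null at 7 days (-1.03). Among inhibitors and p53 targets, Phlda3 was called higher after CS for 4 months in WT (0.93) and in RAGE null (1.0), and Gadd45a higher in WT (0.81). Btg2, an anti-proliferative gene, was called lower in WT after CS for 4 months (-0.90), and Btg1 in RAGE null (-0.59). Between WT and RAGE null after CS for 4 months Gadd45a (1.04), Gadd45b (0.70), Plk2 (1.17) and the inhibitor Cdkn2b (1.11) were called higher in WT. Cdkn1a, which encodes the inhibitor p21, passed the adjusted p without 1.5-fold, lower after CS in RAGE null at 4 months (-0.57) and lower in control WT than in control RAGE null (-0.49).

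Among growth factor receptors and regulators of AM self-renewal, Bhlhe41, a transcription factor that AM need, was called higher after CS for 4 months in WT (0.75) and in RAGE null (0.96) and higher in control WT than in control RAGE null (0.65). Csf1r, Csf2rb and Bhlhe40 were not called in any of the 12 comparisons, and Csf2rb, the shared subunit of the GM-CSF receptor, had a log2 fold change of -0.37 between the control genotypes at 4 months. The values of these regulators are given with all libraries only.

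Strand was not stated for the counting, and 8 members overlap another listed gene, so reads of Ccne2, Cdc20, Cdca8, Ccna2, Mcm7, Tk1, Kif20a and Nusap1 could in part be those of their neighbours. Of the 6 called genes this touches Tk1, which overlaps Afmid.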

How the data were processed

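The authors aligned single-end reads of oligo dT selected TruSeq libraries to mm10 with Novoalign, removed reads that matched several places or held many mismatches, and deposited counts of reads per gene, from which RNA levels and tests here were computed. The strand setting of the counting is not given in the sources used here. The deposited table also holds 31 FPKM columns and the authors' own log ratios and false discovery values for their comparisons, which were not used.

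TMM-scaled counts entered the quasi-likelihood test of edgeR 4.0.16 (R 4.3.3), after filterByExpr (minimum count 10, minimum total 15), with Benjamini-Hochberg adjustment over all genes tested. The 15 libraries of 7 days and the 16 of 4 months were fitted apart, and all 31 together for differences between the CS responses. Calls needed an adjusted p below 0.05 with a change of 1.5-fold or more. DESeq2 1.42.0, its size factors, no filter, no fold threshold, a replicate block and leaving out each library were the alternatives. Scripts were tested on simulated data.

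The members, lists and tests were chosen with earlier results of these data known. Named in every library were members called in any comparison and Mki67, Top2a, Cdk1, Ccnb1, Mcm2 and Pcna; from other lists, at most 4 called genes per comparison by smallest p and a few chosen by name; and the 10 genes most like the members. Library depth, 11666879 to 34492288 reads, gave every member at least 32 reads.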

Additional observations from a re-analysis of the deposited data

Results flagged for a closer look

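Among 189 sets of 4 values checked for a lone value (the gap to the nearest other library divided by the range, against Dixon's critical value), 5 held one, and chance gives about 1 in 20. In WT after CS at 7 days the summed level of all 40 members was 2050 CPM in replicate 1 and 2143 to 2162 in the others. In control WT at 4 months replicate 0 stood above the others in the summed level of G1/S entry (108 against 97.0 to 98.4 CPM) and of the chromosomal passenger complex (70.7 against 57.3 to 59.6 CPM). In WT after CS at 4 months the summed level of replication and G1/S genes was 873 CPM in replicate 3 and 802 to 814 in the others. In RAGE null after CS at 4 months Nusap1 measured 39.6 CPM in replicate 1 and 30.7 to 31.9 in the others. The control RAGE null libraries at 4 months were too spread for their replicate 2 to stand out by this measure.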

How the results depend on the processing

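For control WT against control RAGE null at 4 months the count of members called was 6, against 8 with DESeq2, 7 without a filter on low counts, 7 with the replicate block, 6 with DESeq2 size factors and 12 without the fold threshold. Leaving out each library in turn gave counts from 1 to 31 there, from 0 to 23 for CS in RAGE null at 4 months, from 0 to 8 for the difference of CS responses between time points in RAGE null, from 0 to 1 between the genotypes after CS at 4 months, from 0 to 2 for the interaction at 4 months and 0 in each of the other 7 comparisons. Of 420 log2 fold changes recomputed for 21 values, 2 changed sign, both for Mcm2 after CS in RAGE null at 4 months (0.10 with all libraries), from -0.063 without control RAGE null replicate 0 and -0.042 without replicate 1 to 0.41 without replicate 2. No summed level moved by more than 1 SD under another scaling. Same-numbered libraries had a mean correlation of 0.00572 at 7 days (-0.12 to 0.16) and 0.0290 at 4 months (-0.23 to 0.20). With so few libraries in a group this cannot show whether the numbers pair the samples, and the labels do not say. The replicate block changed no count from 0. Depth limits no member here, since each had at least 32 reads in every library; the spread between the 4 control RAGE null libraries does.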

Other observations

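The 3 genes with the most negative correlation with the mean of the members over 31 libraries, after removing group means, began with Hist1h1c (-0.77), which encodes a linker histone, and went on with Osbpl5 and Rgl3. They were chosen after their values were seen.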
